A study of Mus musculus with 4 samples.

Results

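The regions described here are 6 long segments of mouse chromosomes 1, 4, 16 and 17 whose sequencing depth differed between germline stem cells after a long and a short culture. They were chosen by that depth. A 100 kb window belonged to a segment when it held at least 100 CpGs with 5 to 74 methylation calls in both tables and lay from 190 Mb to the end of chromosome 1, 53 to 55 Mb of chromosome 4, 3 to 24 Mb of chromosome 17 or 3 to 98 Mb of chromosome 16 (mm10 coordinates), with 3 to 6, 6 to 11 and 11 to 98 Mb of chromosome 16 kept apart. This gave 1232 windows of 25235 in the genome. The distal chromosome 1 segment held 54 of them, the interior chromosome 4 segment 20, the inner chromosome 16 segment (6 to 11 Mb) 50, the proximal chromosome 16 segment (3 to 6 Mb) 29, the long chromosome 16 segment (11 to 98 Mb) 870 and the proximal chromosome 17 segment 209.

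Germline stem (GS) cells are spermatogonial stem cells that multiply in a dish and can still form sperm after transplantation. The 60M-GS cells had been cultured for about 60 months and the 5M-GS cells for about 5 months. Both groups were wild type, were derived from testis of Green mice, which carry the Tg14(act-EGFP)OsbY01 transgene from the C57BL/6 strain on a DBA/2 background, and were kept in Iscove's medium with human FGF2, rat GDNF and 1% serum. DNA methylation was read across the genome from bisulfite-treated DNA by the PBAT protocol. The 2 replicates of each culture age were pooled in 1 table, so no spread between replicates exists. Every interval (95%) and test below compares 2 pooled libraries and covers counting error only. Intervals of depth and methylation count each call as independent, although calls on the same read are not, so they can be too narrow.

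Bisulfite turns unmethylated cytosine into a base read as T, so each read over a CpG gives a methylated or an unmethylated call. The number of calls on a stretch of DNA grows with the copies of it in the cells, and it also depends on base composition and on how uniquely reads can be placed. Stem cells kept in culture for long are known to gain or lose parts of chromosomes, and in mice each autosome has its centromere at one end, next to the first sequenced bases. No karyotype or copy number assay was used here, and whether depth followed DNA copies in these cells was not tested.

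In the 60M-GS table, 19341319 CpGs carried 471693518 calls (median 22 per CpG), and the 5M-GS table had 468121185 on a total of 19371838 (median 21). Depth was set relative to the median window of chromosomes 2, 3 and 5 to 14 in the same table, on 15981 windows. On these chromosomes the depth ratio, 60M-GS over 5M-GS, lay between 0.947 and 1.06 in the central 98% of windows, from the 1st to the 99th percentile. Windows of the X chromosome, present once in male cells, had a median relative depth of 0.535 in both tables. As a check of the cell type, the imprinted promoters of Airn, Peg3 and Kcnq1ot1, which are unmethylated in male germ cells, stood at 7.89%, 0.937% and 9.64% in 60M-GS, against 8.10%, 1.00% and 9.50% in 5M-GS, and a stretch of 60 CpGs upstream of H19, which male germ cells methylate, at 91.0% in 60M-GS, against 93.5% in 5M-GS. The outermost RefSeq start of Snrpn, another imprinted gene, held only 6 CpGs and stood at 55.6% in 60M-GS, against 41.5% in 5M-GS, which is not low in either.

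Of the 6 segments, 3 had more depth in 60M-GS. The median depth ratio was 1.15 on distal chromosome 1 (5th to 95th percentile of windows 1.11 to 1.19), 1.14 on interior chromosome 4 (1.10 to 1.17) and 1.16 on inner chromosome 16 (1.12 to 1.19). The other 3 had less. The proximal chromosome 16 segment had a median ratio of 0.885 (0.859 to 0.913), the long one 0.877 (0.846 to 0.907) and proximal chromosome 17 a ratio of 0.858 (0.827 to 0.899). Pooled over all calls of a segment, counting error was small when each call is taken as independent: 1.14 (1.13 to 1.14) on chromosome 1 and 0.859 (0.857 to 0.860) on chromosome 17. These values chose the segments and are given as a description.

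Windows above the 99th percentile of chromosomes 2, 3 and 5 to 14 made up 52 of 54 on chromosome 1, 20 of 20 on chromosome 4 and 48 of 50 in the inner chromosome 16 segment, against 1.6% of all windows. Windows under the 1st percentile made up 28 of 29 in the proximal chromosome 16 segment, 870 of 870 in the long one and 207 of 209 on chromosome 17, against 9.52% of all windows, a share that includes the segments themselves and chromosome 15, whose median ratio was 0.811. Outside the segments and chromosomes 15 and X, 212 of 21474 windows lay above and 209 below these limits. Nearly every window of a segment carried the shift, but depth chose the segments, so these counts are a description and not a test. The spread of the log2 ratio along the long chromosome 16 segment, an SD of 0.0325, was close to that on chromosomes 2, 3 and 5 to 14, which was 0.0328.

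Each table's own depth showed on which side a shift lay. Set against windows of a like number of CpGs, distal chromosome 1 stood at a relative depth of 1.21 in 60M-GS, against 1.04 in 5M-GS, and interior chromosome 4 at 1.14 in 60M-GS, against 0.997 in 5M-GS. Proximal chromosome 17 stood at 0.879 in 60M-GS, against 1.02 in 5M-GS. These 3 segments were near 1 in 5M-GS and away from it in 60M-GS.

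Chromosome 16 differed from them. Its long segment had a relative depth of 0.983 in 60M-GS, against 1.12 in 5M-GS, and its proximal segment 1.04 in 60M-GS, against 1.18 in 5M-GS. In both, 5M-GS was the table away from 1. The inner segment stood at 1.37 in 60M-GS, against 1.18 in 5M-GS, so that 5M-GS was raised to a similar degree in all 3 pieces of the chromosome, and 60M-GS was raised further in the inner one alone. Without setting windows against others of like CpG number, the inner segment also read 1.37 in 60M-GS, against 1.18 in 5M-GS, the proximal one 1.10 in 60M-GS, against 1.25 in 5M-GS, and the long one 0.958 in 60M-GS, against 1.09 in 5M-GS. A table's own depth also carries the base composition of a region, whose part in these levels was not tested.

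**Figure D1:**
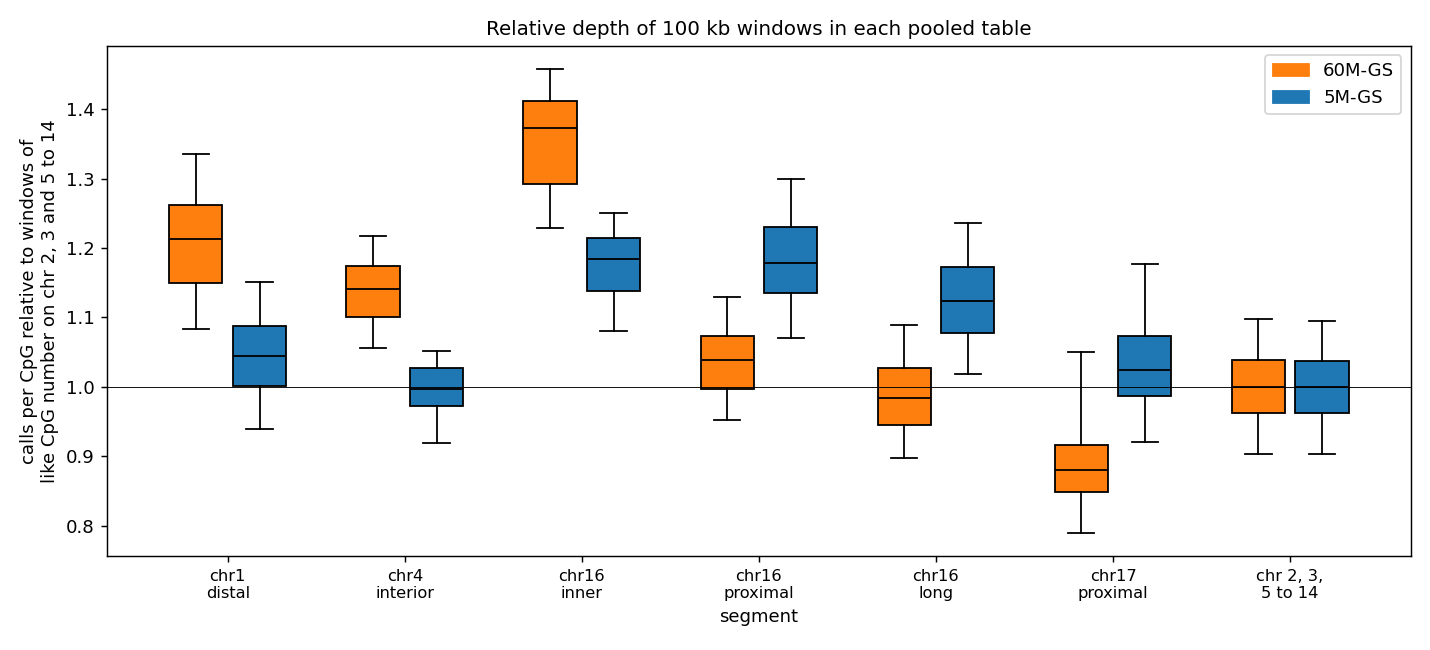
Relative depth of the 100 kb windows of each segment (y axis, calls per CpG divided by the median of windows of like CpG number on chromosomes 2, 3 and 5 to 14) in 60M-GS (orange) and 5M-GS (blue). Boxes span the quartiles with the median, and whiskers reach the outermost windows within the 5th to 95th percentile. The 3 pieces of chromosome 16 lie above 1 in 5M-GS, with medians of 1.18, 1.18 and 1.12, and the inner piece alone rises further in 60M-GS, to 1.37.

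Edges were measured at 6 places. A single step was fitted to the log2 ratio of 10 kb windows within 2 Mb of each nominal edge, and its range is the set of positions that kept at least 95% of the fit's reduction in squares. The chromosome 1 step fell at 190210001 (range 190160001 to 190270001), where the ratio was 0.998 before and 1.14 after it. The ratio then stayed high up to the last windows of the chromosome. Chromosome 4 had a proximal step at 52670001 (52570001 to 52740001), with 1.00 before and 1.14 after, and a distal step at 55450001 (55270001 to 55500001), with 1.14 before and 0.998 after.

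On chromosome 16, the proximal inner step lay at 6050001 (6000001 to 6100001), with a ratio of 0.878 before and 1.15 after it. The distal inner step lay at 10950001 (10900001 to 10990001), with 1.16 before and 0.867 after. The chromosome 17 step lay at 23810001 (23780001 to 23870001), with 0.868 before and 1.00 after. The ranges were 90 to 230 kb wide, which is small beside the distances between edges. The widest was the distal chromosome 4 step, whose last 200 kb inside had a ratio of 1.08, below the 1.14 of the segment. Whether this end was graded, or the fitted position lay past a sharp step, was not tested. No step was fitted at the outer ends of the chromosome 16 and 17 segments.

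**Figure D2:**
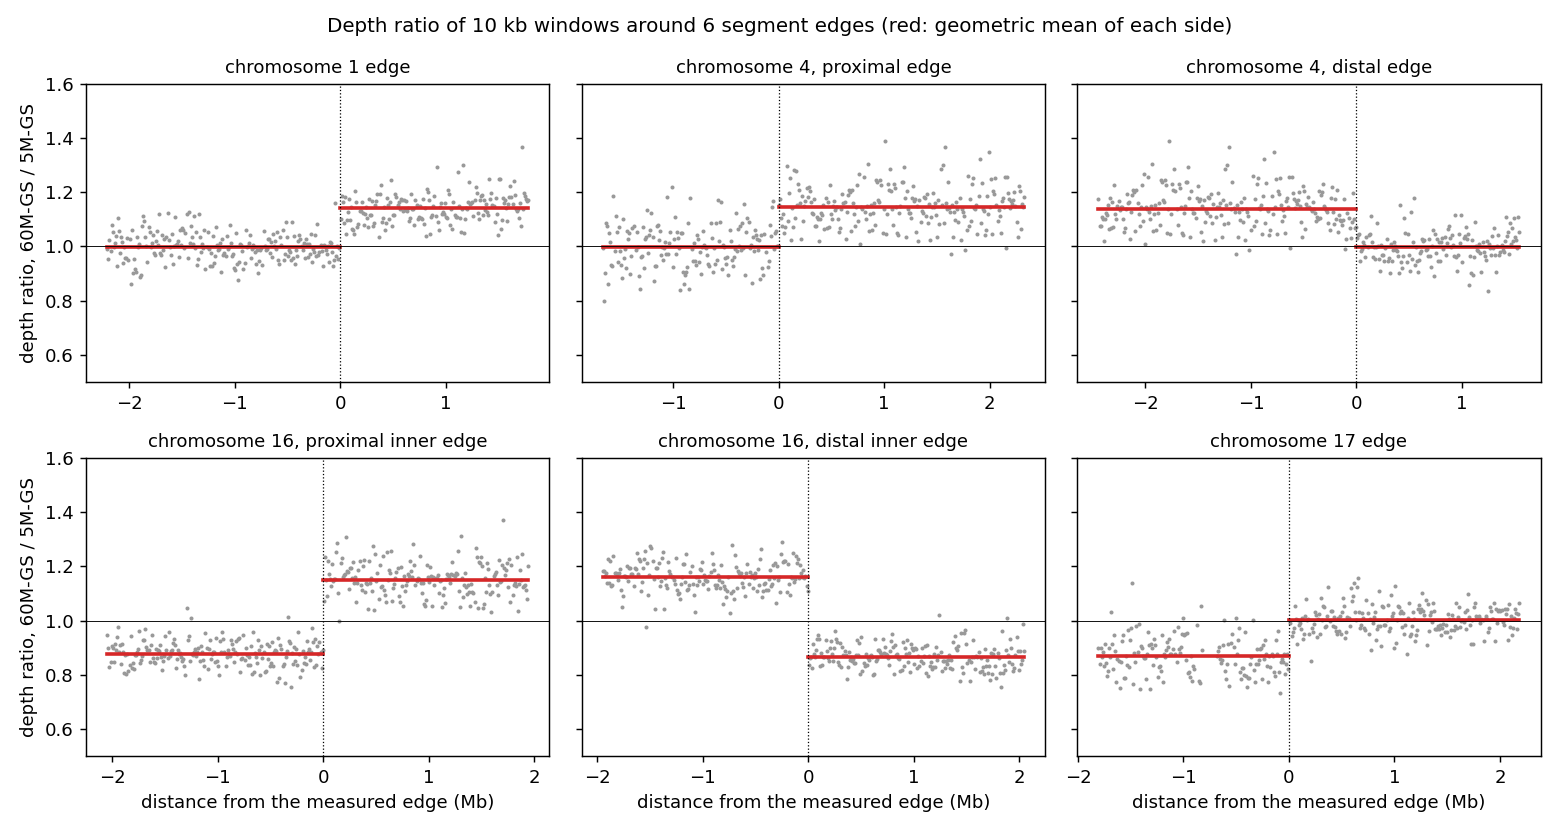
Depth ratio (y axis, 60M-GS over 5M-GS) of 10 kb windows against the distance from each measured edge (x axis, Mb), for the 6 edges. Red lines give the geometric mean of each side and dotted lines the fitted step. The ratio changes level at each edge, by the most at the 2 inner edges of chromosome 16, where 0.878 meets 1.15 and 1.16 meets 0.867.

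At all 6 edges the step was in the 60M-GS table. In the 10 windows of 100 kb on each side, relative depth in 60M-GS changed by 13.1% across the chromosome 1 edge, by 12.4% and -10.9% across the proximal and distal chromosome 4 edges, by 27.8% and -23.3% across the inner chromosome 16 edges and by 14.3% across the chromosome 17 edge (9 windows before it). The 5M-GS table changed across the same places by between -2.20% and 3.97%. At the proximal inner edge of chromosome 16, for example, relative depth was 1.04 before and 1.33 after in 60M-GS, against 1.19 before and 1.16 after in 5M-GS.

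The nominal limits lay close to the measured ones but not on them. On chromosome 1 the first 2 windows inside the nominal segment, before the measured edge, had ratios of 0.982 and 0.993, the next 1.11, and the last one outside it 0.995. On chromosome 4 the 3 windows outside each nominal limit were already shifted, at 1.12, 1.17 and 1.16 on the proximal side and 1.13, 1.14 and 1.13 on the distal side. The windows that contain the inner edges of chromosome 16 read 1.01 and 0.976, and the one that contains the chromosome 17 edge 0.963. The window just past it read 1.01. The windows that lay wholly between the ranges of the measured edges numbered 51 on chromosome 1, with a median ratio of 1.15, 24 on chromosome 4 with 1.14, 48 in the inner chromosome 16 segment with 1.16 and 206 on chromosome 17 with 0.858. Among these windows the ratio ran from 1.10 to 1.25 on chromosome 1, 1.10 to 1.18 on chromosome 4, 1.11 to 1.20 in the inner chromosome 16 segment and 0.806 to 0.919 on chromosome 17.

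RefSeq genes of the mm10 build were placed at the edges, with distances from the fitted positions. Prox1, Toporsl, Rad23b and Litaf reach into the ranges of their edges, so on which side of an edge they lie is not settled by the fit, and 7 genes, Flywch2, Srrm2, Elob, Prss33, Prss41, Prss32 and Prss21, reach into the range of the chromosome 17 edge. The chromosome 1 edge lay 39174 bp past the end of Prox1, a homeobox factor of lymphatic and liver development, and 562878 bp before Rps6kc1, a kinase-like gene. Over the span of each gene with 5 kb on both sides, Prox1 had a depth ratio of 0.993 (0.975 to 1.01) and Rps6kc1 one of 1.14 (1.13 to 1.16). The proximal chromosome 4 edge lay between Toporsl (57571 bp before it) and the olfactory receptor Olfr275 (155398 bp after it). Toporsl had a ratio of 1.12 (1.07 to 1.16) and Olfr275 one of 1.11 (1.04 to 1.18). Toporsl thus read above 1 although it lies before the fitted position. The distal one lay between Rad23b, which takes part in DNA damage recognition (57764 bp before it), and Klf4, a pluripotency factor (77136 bp after it). Rad23b had a ratio of 1.04 (1.01 to 1.07) and Klf4 one of 0.982 (0.950 to 1.01), an interval that holds 1. Calls on the same read are not independent, so these intervals can be too narrow.

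On chromosome 16 the proximal inner edge fell inside Rbfox1, a long gene for an RNA splicing regulator that runs from 5884793 to 7412480. The distal one fell between Rmi2, a partner of the Bloom helicase (106766 bp before it), and Litaf, a gene of endosomal transport (9272 bp after it). Rmi2 had a ratio of 1.24 (1.20 to 1.28) and Litaf one of 0.861 (0.842 to 0.881). The chromosome 17 edge fell inside Srrm2, a splicing factor from 23790527 to 23824741, whose span read 0.928 (0.909 to 0.948). Before it, Flywch2 read 0.840 (0.808 to 0.874). After it the ratio read 0.979 (0.946 to 1.01) over Elob, a subunit of elongin. Of the serine protease genes that follow, Prss33 read 0.951 (0.916 to 0.988) and Prss41 0.952 (0.917 to 0.988), both below 1. Prss32 read 0.998 (0.951 to 1.05) and Prss21 1.04 (0.997 to 1.09).

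Depth chose the segments, so the ratios of genes inside them are a description and not a test. Listed genes inside a segment and clear of its edges read on the same side of 1 as that segment. The inner chromosome 16 segment holds the sperm nuclear protein cluster, whose products replace histones during sperm head condensation. The depth ratio was 1.15 (1.10 to 1.21) for Prm1, 1.17 (1.12 to 1.23) for Prm2, 1.19 (1.14 to 1.24) for Prm3 and 1.17 (1.14 to 1.21) for Tnp2. Next to them, Socs1, an inhibitor of cytokine signalling, read 1.16 (1.12 to 1.20). With 5 kb on each side, the spans of neighbouring genes here overlap, so their values share calls. Usp7, a deubiquitinase elsewhere in the segment, read 1.14 (1.12 to 1.16). On chromosome 1, Nek2, a centrosome kinase, read 1.20 (1.16 to 1.23), and Atf3, a stress response factor, 1.13 (1.10 to 1.15).

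Listed genes of the other 3 segments lay below 1. Crebbp, a histone acetyltransferase of the proximal chromosome 16 segment, read 0.874 (0.860 to 0.889). Etv5, a factor that GDNF induces and that spermatogonial stem cells need, read 0.883 (0.869 to 0.898) in the long segment, and Sod1, which removes superoxide, 0.949 (0.916 to 0.984), the highest of the listed genes there. On chromosome 17 the ratio was 0.857 (0.827 to 0.889) for Prdm9, which marks meiotic recombination sites, 0.875 (0.861 to 0.889) for the growth factor receptor Igf2r and 0.781 (0.755 to 0.807) for Phf10, a subunit of a chromatin remodelling complex. In protein-coding genes, the segments held 39 (chromosome 1), 7 (chromosome 4), 26, 41 and 610 (inner, proximal and long chromosome 16) and 219 (chromosome 17). Among them were 34 olfactory receptor genes in the long chromosome 16 segment and 44 vomeronasal receptor genes on chromosome 17, by gene symbol.

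**Figure D3:**
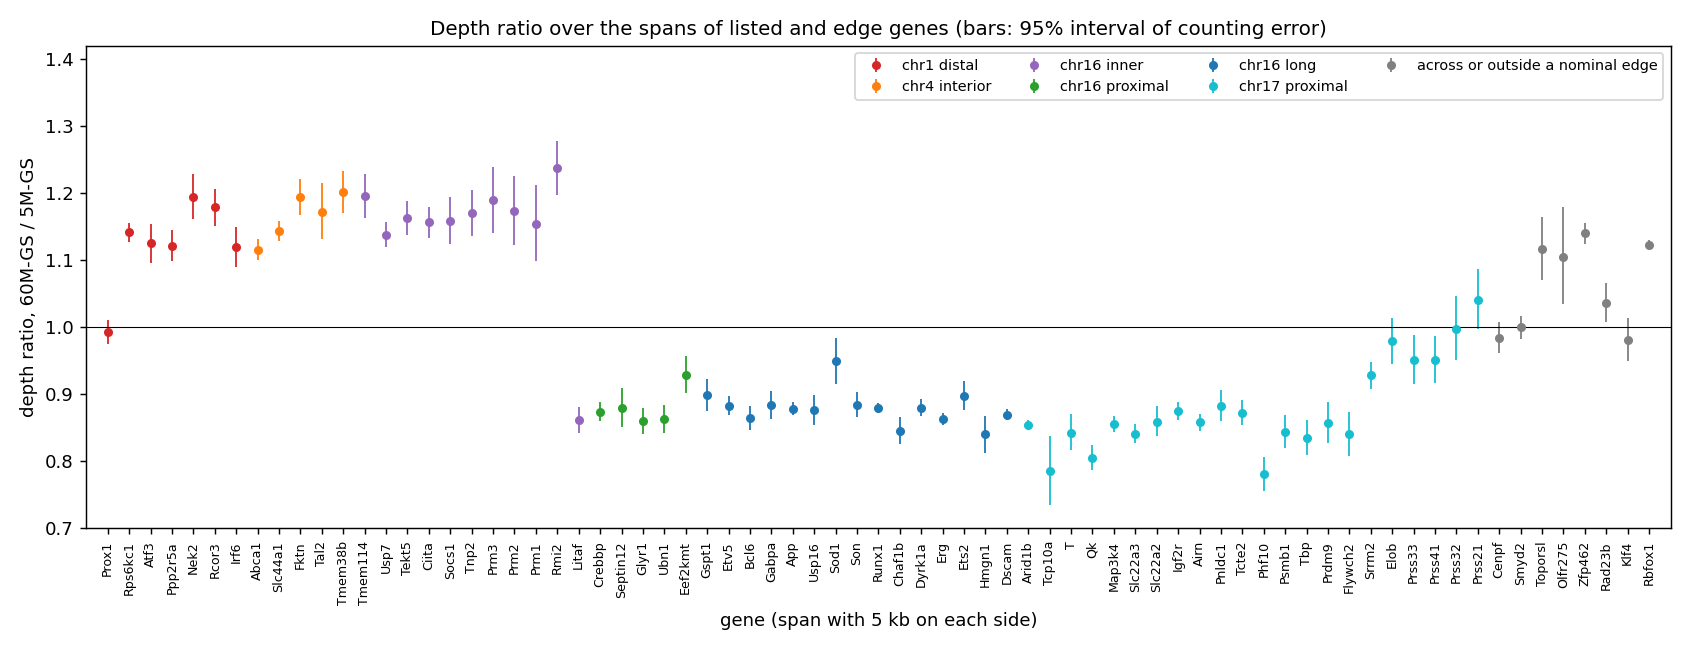
Depth ratio (y axis, 60M-GS over 5M-GS) over the spans of 73 genes at the edges or in the lists used, each with 5 kb on both sides, in order of segment and position. Bars are 95% intervals of counting error. Genes of distal chromosome 1, interior chromosome 4 and inner chromosome 16 lie above 1, except Prox1 (0.993) and Litaf (0.861), and those of the other segments lie below 1, except Prss21 (1.04) past the chromosome 17 edge. Grey points are genes across or outside a nominal edge, and Tcte3, with 2 measured CpGs, is left out.

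Inside the long chromosome 16 segment lay a shorter stretch of still lower ratio, noticed in its window values and so given as a description. The windows from 18300001 to 18600000 had ratios of 0.767, 0.732 and 0.801, which is -6.58, -8.89 and -4.46 robust SDs from the segment's median. On chromosomes 2, 3 and 5 to 14, 7 of 15981 windows lay more than 4 robust SDs below their median and 11 above. In 10 kb windows, the interval that fitted best ran from 18280001 to 18570000, a length of 290 kb, with its end between 18560000 and 18590000 and no other start within the range. Its pooled ratio was 0.752 (0.745 to 0.759), against 0.877 (0.868 to 0.887) in the 200 kb before it and 0.870 (0.861 to 0.879) in the 200 kb after it.

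The stretch stood out in 60M-GS and not in 5M-GS. Relative depth of its 3 windows was 0.900, 0.880 and 0.892 in 60M-GS, against 1.17, 1.20 and 1.11 in 5M-GS, where the whole segment stood at 1.12. Genes wholly inside it include Tango2, Txnrd2 and Gnb1l, and across its start lies Dgcr8. Txnrd2 is the mitochondrial thioredoxin reductase, and Dgcr8 is the partner of Drosha in microRNA processing. Methylation of the stretch was 77.7% in 60M-GS, against 78.0% in 5M-GS, a difference of -0.384 points (-0.783 to 0.0154).

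**Figure D4:**
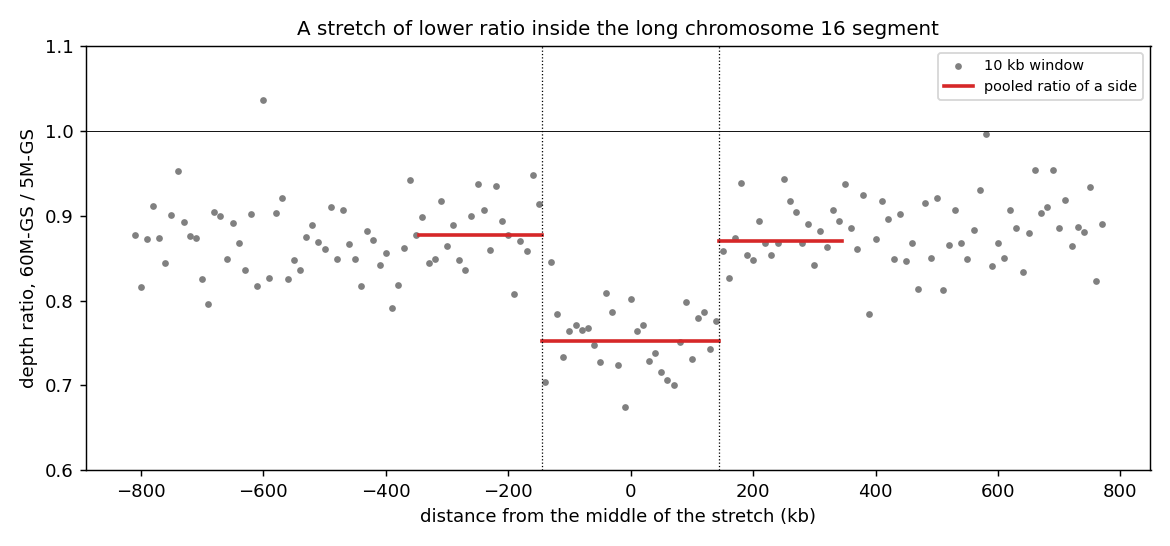
Depth ratio (y axis, 60M-GS over 5M-GS) of 10 kb windows against the distance from the middle of the stretch that holds Txnrd2 (x axis, kb). Red lines are pooled ratios inside the stretch (0.752) and in the 200 kb on each side (0.877 and 0.870), and dotted lines its fitted ends.

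Methylation was not used to choose the segments and could be compared with the rest of the genome, though without replicates. The 3 segments with more depth in 60M-GS differed little in level. Distal chromosome 1 stood at 75.9% in 60M-GS, against 76.0% in 5M-GS, a difference of -0.119 points (-0.231 to -0.00724), which changed sign when every CpG had the same weight (0.0382 points). Interior chromosome 4 stood at 77.8% in 60M-GS, against 77.6% in 5M-GS (0.151 points, -0.0387 to 0.341), and inner chromosome 16 at 78.6% in 60M-GS, against 78.2% in 5M-GS (0.344 points, 0.231 to 0.457).

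Pooled over all calls, the segments with less depth in 60M-GS were more methylated in it, as was the genome. Proximal chromosome 16 stood at 74.2% in 60M-GS, against 73.0% in 5M-GS, a difference of 1.15 points (0.999 to 1.31). This rise was not spread over the segment. Its median window differed by 0.0588 points, and the median windows of its megabases from 3, 4 and 5 Mb by 7.73, 0.0329 and -0.535 points. The long segment stood at 77.8% in 60M-GS, against 76.4% in 5M-GS (1.38 points, 1.35 to 1.41), and proximal chromosome 17 at 76.7% in 60M-GS, against 75.02% in 5M-GS (1.63 points, 1.57 to 1.70). Chromosomes 2, 3 and 5 to 14 stood at 75.6% in 60M-GS, against 74.4% in 5M-GS (1.17 points), and all windows together differed by 1.21 points. The median window differed by 1.01 points in the long segment, 0.718 points on chromosome 17 and 0.758 points on chromosomes 2, 3 and 5 to 14. Windows that were higher in 60M-GS made up 19 of 54 on chromosome 1, 7 of 20 on chromosome 4, 21 of 50 in the inner, 16 of 29 in the proximal and 597 of 870 in the long chromosome 16 segment and 126 of 209 on chromosome 17, against 64.9% of all windows.

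To allow for starting level and CpG number, each window was set against windows of chromosomes 2, 3 and 5 to 14 of like 5M-GS level and like CpG number. Relative to such windows, the median window changed by -1.07 points on chromosome 1, -1.03 points on chromosome 4 and -0.912 points in the inner chromosome 16 segment. The value was -0.163 points in the proximal and 0.218 points in the long chromosome 16 segment, and -0.379 points on chromosome 17. The same median over a whole chromosome was lowest on chromosome 11, at -0.346 points, and highest on chromosome 3, at 0.419 points. The 3 segments with more depth and the chromosome 17 segment lay below that lowest value, but they hold fewer windows than a chromosome, and medians of short stretches vary more. In neighbouring stretches of unshifted depth, the median was 0.188 points before the chromosome 1 segment (60 windows), 0.817 points before (55 windows) and 0.133 points after (47 windows) the chromosome 4 segment, and -0.428 points after the chromosome 17 segment (60 windows), which also lies below the lowest whole chromosome.

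**Figure D5:**
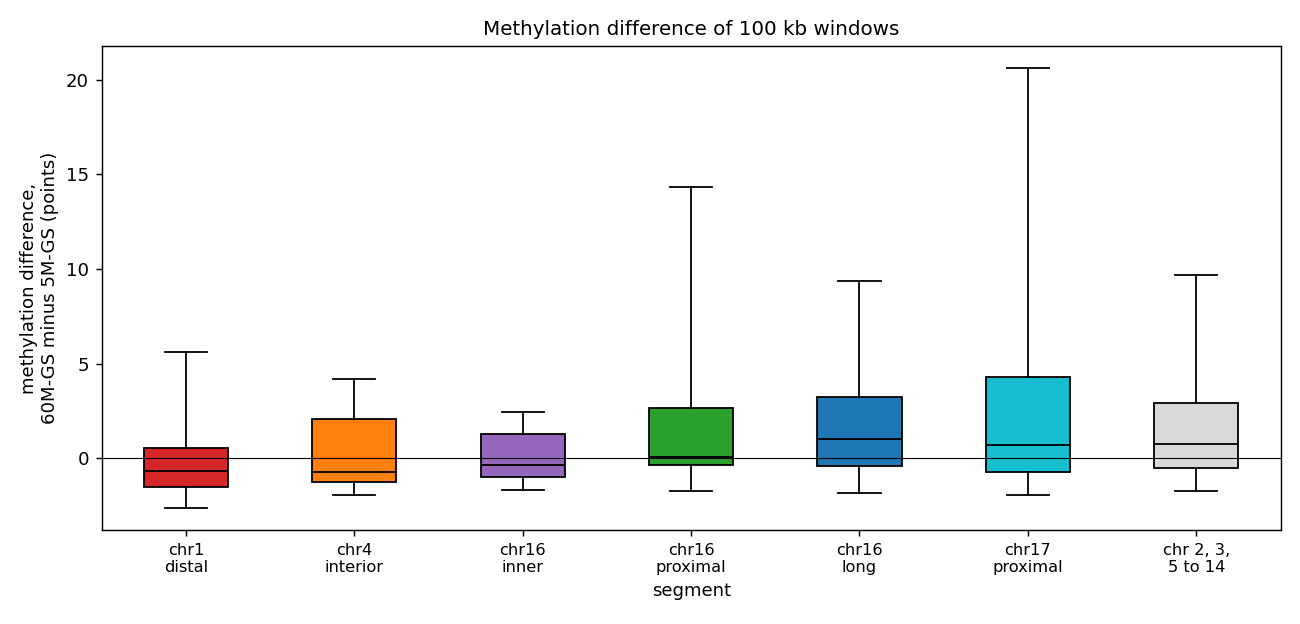
Difference in methylation (y axis, 60M-GS minus 5M-GS, percentage points) of the 100 kb windows of each segment and of chromosomes 2, 3 and 5 to 14. Boxes span the quartiles with the median, and whiskers reach the outermost windows within the 5th to 95th percentile. Medians are below 0 in the 3 segments with more depth in 60M-GS (-0.691, -0.734 and -0.380 points), and the upper whiskers are longest on chromosome 17 and proximal chromosome 16.

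Windows that differed by at least 10 points were all higher in 60M-GS. They numbered 1 on chromosome 1, 4 in the proximal and 40 in the long chromosome 16 segment and 29 on chromosome 17, and 0 in the other 2 segments. By share that was 1.85%, 13.8%, 4.60% and 13.9%, against 6.31% of all windows, which include the X chromosome at 25.9%. On chromosomes 2, 3 and 5 to 14 the share was 4.76%. No window of the genome was lower by as much. Most lay in runs of adjacent windows. The longest on chromosome 16 covered 13 windows from 60700001 to 62000000, at 85.5% in 60M-GS, against 67.6% in 5M-GS. On chromosome 17, 13 windows from 18100001 to 19400000 stood at 81.7% in 60M-GS, against 63.4% in 5M-GS, and 13 windows from 19600001 to 20900000 at 80.7% in 60M-GS, against 58.2% in 5M-GS. The vomeronasal receptor genes Vmn2r97 and Vmn2r104 lie in the first and the second of these runs. At the start of the proximal chromosome 16 segment, 4 windows from 3200001 to 3600000 stood at 83.9% in 60M-GS, against 69.0% in 5M-GS. The depth ratio in these runs did not leave that of their segments: by megabase, it was 0.863 at 61 Mb of chromosome 16 and 0.854, 0.848 and 0.845 at 18, 19 and 20 Mb of chromosome 17.

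At 1 kb, a two-sided Fisher's exact test was run on each tile of at least 4 CpGs, p-values were adjusted over all tiles by the Benjamini-Hochberg method, and a tile was called at an adjusted p under 0.05 and a difference of at least 20 points. Of 83159 tiles tested in the segments, 3042 were higher and 339 lower in 60M-GS. Over all tiles 3.48% gained and 0.476% lost. Gains made up 2.06% of tiles on chromosome 1, 1.77% on chromosome 4 and 1.05% in the inner chromosome 16 segment, and 3.05% in the proximal and 3.62% in the long chromosome 16 segment and 5.32% on chromosome 17. Calls on the same read are not independent. With the calls of each tile divided by its CpGs, 443 gains and 14 losses were left in the segments, and the order of the shares turned. They were 0.385% on chromosome 1, 0.545% on chromosome 4 and 0.487% in the inner, 0.422% in the proximal and 0.572% in the long chromosome 16 segment, and 0.432% on chromosome 17, against 0.49% of all tiles (0.0153% for losses). Chromosome 17, above the share of all tiles with all calls, was then below it at 58 of 13412 tiles, and chromosome 4 was above it at 8 of 1467. These shares lie near that of all tiles. With all calls and at least 30 points, chromosome 17 stayed above all tiles (3.03% against 2.01%) and chromosome 4 below (1.02%). With all calls and at least 10 CpGs, the shares were 5.81% on chromosome 17 and 3.61% on chromosome 4, against 5.19% of all tiles.

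Some tiles with at least 10 CpGs, named after their values were seen, differed almost completely. A tile inside Tiam1, a Rac activator, at 90011001 of chromosome 16 held 91.6% in 60M-GS, against 1.43% in 5M-GS. A tile inside the semaphorin gene Sema5b at 35651001 held 94.1% in 60M-GS, against 7.08% in 5M-GS. On chromosome 17, a tile inside Zscan10, a zinc finger gene of embryonic stem cells, at 23610001 held 93.3% in 60M-GS, against 10.2% in 5M-GS. In the inner chromosome 16 segment, the largest lay 13934 bp from Usp7 at 8771001, with 89.5% in 60M-GS, against 15.0% in 5M-GS, and on chromosome 1 one lay 8952 bp from Nek2 at 191842001, with 80.1% in 60M-GS, against 6.25% in 5M-GS. The largest fall lay at 93074001 of chromosome 16, 52826 bp from the nearest gene, with 22.9% in 60M-GS, against 88.8% in 5M-GS. All 6 also passed with divided calls.

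Promoter windows ran from 1000 bp upstream to 500 bp downstream of a gene's start and were tested in the same way over all genes. In the segments 58 of 1362 gained and 10 lost methylation, or 4.26% and 0.734%, against 4.41% and 0.474% of all promoters. Of 835 protein-coding promoters, 33 gained and 3 lost, against 3.43% and 0.269% of all. By segment, 4 of 84 promoters gained on chromosome 1 and 2 of 17 on chromosome 4, each of a long non-coding RNA, among them Mexis, which lies by Abca1. In the inner chromosome 16 segment 0 of 41 gained and 0 lost. The proximal chromosome 16 segment had 1 gain, the long one 41 gains and 6 losses, and chromosome 17 had 10 gains and 4 losses. With divided calls 18 gains and 1 loss were left, where 1.23% and 0.0271% of all promoters were called.

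The largest gain of a protein-coding promoter was that of Ldhal6b on chromosome 17, a testis-expressed gene related to lactate dehydrogenase, at 87.1% in 60M-GS, against 9.31% in 5M-GS, a difference of 77.8 points (74.8 to 80.3, Fisher's exact test, adjusted p = 4.38e-297). In the long chromosome 16 segment Gpr15, a receptor that guides T cells to the gut, stood at 87.6% in 60M-GS, against 18.5% in 5M-GS. Rpl31-ps12, which RefSeq lists as protein-coding although its symbol marks a pseudogene, stood at 90.7% in 60M-GS, against 23.7% in 5M-GS, and Krtap26-1, a hair keratin-associated gene, at 89.3% in 60M-GS, against 28.7% in 5M-GS. These 4 also passed with divided calls (adjusted p = 8.70e-06, 0.000170, 0.00633 and 0.00375, Fisher's exact test).

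The others named by the rule, which leaves out predicted genes, did not, apart from Csta2. Slc22a2, an organic cation transporter imprinted in placenta, stood at 88.8% in 60M-GS, against 52.0% in 5M-GS, a difference of 36.8 points that shrank to 17.6 points when the promoter window was widened by 1000 bp upstream and by 500 bp downstream. Fpr-rs3, a formyl peptide receptor gene, stood at 93.0% in 60M-GS, against 57.8% in 5M-GS on 4 CpGs, and Olfr15, an olfactory receptor gene, at 37.5% in 60M-GS, against 14.2% in 5M-GS. Of the 3 protein-coding losses, Csta2, a stefin A protease inhibitor gene, stood at 29.3% in 60M-GS, against 81.2% in 5M-GS (-51.9 points, -56.8 to -46.5) and passed with divided calls (Fisher's exact test, adjusted p = 0.0379). Unc93a, a membrane protein gene, stood at 8.31% in 60M-GS, against 37.3% in 5M-GS, and Kalrn, a guanine nucleotide exchange factor, at 43.2% in 60M-GS, against 66.7% in 5M-GS.

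Sequences just upstream of 4 of these starts, chosen after their values were seen, show single CpGs behind such differences. They hold a small part of the promoter windows, which had 36 CpGs for Ldhal6b, 20 for Krtap26-1, 29 for Slc22a2 and 21 for Csta2. Each is the 250 bases before the RefSeq start (GRCm38.p6), 5′ to 3′ on the gene's strand, with CpGs in capitals: Ldhal6b from chr17:5418768-5419017 (minus strand), Krtap26-1 from chr16:88647797-88648046 (minus), Slc22a2 from chr17:12583939-12584188 (plus) and Csta2 from chr16:36221312-36221561 (plus).
Ldhal6b: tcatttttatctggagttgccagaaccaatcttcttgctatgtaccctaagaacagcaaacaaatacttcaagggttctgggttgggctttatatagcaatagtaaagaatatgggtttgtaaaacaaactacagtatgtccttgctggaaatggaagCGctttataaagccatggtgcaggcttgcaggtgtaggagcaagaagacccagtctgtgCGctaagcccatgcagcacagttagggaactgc
Krtap26-1: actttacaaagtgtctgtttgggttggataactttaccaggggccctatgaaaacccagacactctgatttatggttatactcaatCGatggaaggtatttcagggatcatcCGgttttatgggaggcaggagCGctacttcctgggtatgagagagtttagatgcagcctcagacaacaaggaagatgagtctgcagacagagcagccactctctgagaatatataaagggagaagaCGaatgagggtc
Slc22a2: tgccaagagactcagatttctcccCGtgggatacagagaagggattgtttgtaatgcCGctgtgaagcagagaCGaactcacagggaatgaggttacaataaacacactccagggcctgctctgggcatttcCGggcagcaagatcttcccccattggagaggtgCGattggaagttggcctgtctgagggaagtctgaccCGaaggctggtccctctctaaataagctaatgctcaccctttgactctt
Csta2: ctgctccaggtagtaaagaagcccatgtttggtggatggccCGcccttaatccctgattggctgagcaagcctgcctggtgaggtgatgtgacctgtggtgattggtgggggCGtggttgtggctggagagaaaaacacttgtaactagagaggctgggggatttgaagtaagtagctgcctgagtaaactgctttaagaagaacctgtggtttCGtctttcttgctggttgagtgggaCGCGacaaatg

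In the Ldhal6b sequence both CpGs, 92 and 33 bases before the start, held 0 methylated of 33 and 37 calls in 5M-GS. So few calls do not exclude a low level of methylation there. In 60M-GS, 75.6% and 87.8% of 41 calls each were methylated. The 4 CpGs of Krtap26-1 ranged from 62.5% to 96.7% in 60M-GS and from 0% to 15.8% in 5M-GS. In Slc22a2 the 6 CpGs ranged from 84.6% to 91.7% in 60M-GS and from 20% to 44.4% in 5M-GS. Of the 5 CpGs of Csta2, 4 were measured, at 6.67% to 40% in 60M-GS, against 85.7% to 100% in 5M-GS. Those 36, 11 and 9 bases before its start had few calls, 10, 15 and 15 in 60M-GS, against 14, 9 and 8 in 5M-GS. In these 4 sequences, picked for their differences, the ranges of the tables did not overlap. How often this holds over all promoters was not counted. In the same stretch the ranges did overlap for Olfr15, with 3 CpGs at 20.5% to 34.4% in 60M-GS, against 8.82% to 21.1% in 5M-GS. They also did for Kalrn, with 9 CpGs at 5.71% to 59.1% in 60M-GS, against 42.9% to 69.0% in 5M-GS.

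Among the genes listed for their roles, 1 promoter was called. Of 16 germ cell genes, 13 lay in or near a segment and 10 had a promoter tested, of which 0 gained and 0 lost, against 4.41% and 0.474% of all promoters. The median difference of the 10 was -0.276 points, beside 0.152 points over all promoters. The Prm1 promoter stood at 93.8% in 60M-GS, against 84.3% in 5M-GS, Prm2 at 89.7% in 60M-GS, against 85.8% in 5M-GS. Prm3 stood at 89.4% in 60M-GS, against 89.9% in 5M-GS, and Tnp2 at 80.2% in 60M-GS, against 86.7% in 5M-GS. These 4 promoter windows were above 80% in both tables. The gene spans of Prm3 and Tnp2 with 5 kb on each side were lower. They stood at 49.7% in 60M-GS, against 51.8% in 5M-GS for Prm3, and 28.5% in 60M-GS, against 29.2% in 5M-GS for Tnp2. The Tnp2 span takes in the whole of Socs1, and the Prm3 span takes in part of the Socs1 promoter. That promoter stood at 0.461% in 60M-GS, against 0.471% in 5M-GS, on 95 CpGs. These span levels are therefore not those of Prm3 and Tnp2 alone. Etv5 stood at 0.291% in 60M-GS, against 0.320% in 5M-GS, and Prdm9 at 1.05% in 60M-GS, against 0.821% in 5M-GS. Of 4 imprinted genes of chromosome 17, the 1 gain was that of Slc22a2. Slc22a3, its neighbour, stood at 14.003% in 60M-GS, against 3.17% in 5M-GS, and Igf2r at 7.52% in 60M-GS, against 6.92% in 5M-GS. Of 41 genes of chromatin, cell cycle and signalling, 39 promoters were tested, 0 gained and 0 lost, 37 were under 10% in both tables, and their median difference was -0.0104 points.

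A CpG that reads unmethylated among methylated neighbours can be an unmethylated site or a place where the cells carry T, since bisulfite reads cannot tell apart a converted cytosine and a T. Such isolated low CpGs, at 10% or less with the nearest 2 CpGs on each side at 60% or more, were counted in both tables, and their source was not tested. They made up 1.79% of CpGs in such surroundings in 60M-GS, against 1.77% in 5M-GS on chromosome 1, 2.82% in 60M-GS, against 2.79% in 5M-GS on chromosome 4, and 3.01% in 60M-GS, against 2.99% in 5M-GS in the inner chromosome 16 segment. The shares were 0.861% in both tables in the proximal and 1.14% in 60M-GS, against 1.13% in 5M-GS in the long chromosome 16 segment, and 1.84% in 60M-GS, against 1.81% in 5M-GS on chromosome 17. Outside the segments they were 1.53% in 60M-GS, against 1.504% in 5M-GS.

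The sites were nearly the same in both tables. Of those low in 60M-GS, from 94.9% (chromosome 17) to 98.9% (chromosome 4) were also low in 5M-GS, beside 95.1% outside the segments. By segment, the inner chromosome 16 segment held 678 in 60M-GS, against 673 in 5M-GS of 22494 CpGs (95% interval of the 60M-GS share 2.80% to 3.25%), and the long one next to it 4445 in 60M-GS, against 4412 in 5M-GS of 390537 (1.11% to 1.17%). The sites were patchy, so these shares do not describe a whole segment. In 60M-GS the inner segment had 11.2% and 10.6% in the megabases from 6 and 7 Mb, against 0.0501%, 0.0917% and 1.72% in those from 8, 9 and 10 Mb, with like values in 5M-GS. On chromosome 4 the share in 60M-GS was 1.01% in the megabase from 53 Mb and 6.47% in the next. Patches also lay outside the segments, with 11.05% to 11.8% in 60M-GS in the 3 megabases from 66 Mb of chromosome 1. CpGs at 30% to 70% in the same surroundings made up 3.68% in 60M-GS, against 3.40% in 5M-GS in the inner segment and 4.40% in 60M-GS, against 4.45% in 5M-GS outside the segments. Sites at 30% to 70% in 5M-GS that were low in 60M-GS numbered 12 on chromosome 17 and 41 in the long chromosome 16 segment, 0.320% and 0.253% of such sites, beside 0.295% outside the segments.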

How the data were processed

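Genomic DNA of 60M-GS and 5M-GS cells was read by post-bisulfite adaptor tagging. Per the submitters' processing notes, Bismark 0.10.0 and the mm10 build were used; the sources used here give no other settings. The deposited tables hold, per CpG, the counts of methylated and of unmethylated calls and the percent methylated that the authors computed from them, with 2 replicates of an age pooled in 1 table. The counts were used, and percent was recomputed from them.

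CpGs with 5 to 74 calls in both tables were summed in 100 kb windows (at least 100 CpGs), 1 kb tiles (at least 4 CpGs) and promoters. Depth was scaled to the median window of chromosomes 2, 3 and 5 to 14. Edges were single least-squares steps in 10 kb windows. Intervals for differences are Newcombe's and those for shares Wilson's, at 95%. For tiles and promoters, p-values are from two-sided Fisher's exact tests, adjusted over the whole table by the Benjamini-Hochberg method. Intervals and tests compare 2 pooled libraries and cover counting error only, and intervals of depth and methylation count each call as independent. Promoters were placed at RefSeq starts, or at the CpG-dense end of a gene without a usable one. Python 3.11.15, NumPy 2.4.6, pandas 2.3.3 and numba 0.67.0 were used. The tile test was checked on simulated independent calls, which does not cover calls that share a read. The edge fit was checked with steps added to measured windows.

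Named genes were those at each edge, up to 3 protein-coding promoters per segment with the largest gain and up to 3 with the largest loss, leaving out predicted and clone-named genes, and lists of germ cell, imprinted and chromatin, cell cycle and signalling genes in or within 1 Mb of a segment; tiles, the nested stretch and single CpG sequences were chosen after their values were seen. The segments, lists and rules were chosen with earlier results of these data known. The alternatives tried were other limits on calls, window sizes, scaling chromosomes, CpG weighting, promoter width, tile limits and divided calls.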

Additional observations from a re-analysis of the deposited data

How the results depend on the processing

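No paired analysis was possible because the replicates of each culture age were pooled in 1 table, and for the same reason no replicate could be left out. Of 90 values that answer a comparison, 67 stayed within their error or within 1.5 times their count, 22 moved and 1 changed sign; the causes were not tested. With every CpG weighted the same, the methylation difference became 0.0382 points on chromosome 1 (the change of sign), 0.220 in the inner chromosome 16 segment and 1.83 on chromosome 17. It was 1.58 points in the long chromosome 16 segment with no upper limit on calls and 1.56 on chromosome 17 with 10 to 74 calls. The depth ratio of chromosome 1 was 1.148 with 10 to 74 calls, 1.148 in 50 kb windows and 1.156 scaled to chromosomes 1 to 19. That of the long chromosome 16 segment was 0.881 with 10 to 74 calls and 0.879 scaled to chromosomes 1 to 19, and that of chromosome 17 was 0.861 and 0.860. No depth ratio changed side of 1 under these settings. Of 83159 tiles, 443 gained and 14 lost with divided calls, where 0.49% and 0.0153% of all tiles did. At 30 points 1713 gained and 111 lost, where 2.01% and 0.141% of all tiles did. With at least 10 CpGs fewer tiles were tested. Of 27208, 1593 gained and 199 lost, where 5.19% and 0.777% of all such tiles did. Of 1362 promoters, 18 gained and 1 lost with divided calls, where 1.23% and 0.0271% of all promoters did. In the wider window 6 of 1427 lost, where 0.249% of all promoters did. Isolated low CpGs of the long chromosome 16 segment were 1.08% in 60M-GS and 1.07% in 5M-GS at 10 or more calls, a setting chosen after seeing the data. Of 21 settings tried on named promoters and the nested stretch, 14 kept the call and 7 lost it. In 25 kb windows every edge stayed within its range, and the nested stretch had a ratio of 0.755.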

Other observations

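Outside the segments, 5 windows of chromosome 17 had a relative depth of 1.75 in both tables, with a depth ratio of 1.01. Set against windows of like CpG number, their relative depth was 1.62 in 60M-GS, against 1.61 in 5M-GS. These windows hold Glo1, the glyoxalase gene, and a duplication there is known in DBA/2 mice. They were 79.5% methylated in 60M-GS, against 80.2% in 5M-GS (-0.695 points, -0.947 to -0.442). Whether these cells carry that duplication was not tested.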
